A study of Mus musculus with 10 samples.

Results

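The circadian clock genes examined here were a set of 10 chosen by name: Arntl, Clock and Npas2, the positive arm, Per1, Per2, Per3, Cry1 and Nr1d1, the negative arm, and Dbp and Bhlhe40, which the clock drives. Their transcripts were measured in ventricle tissue from 10 mice, each hybridised to its own Affymetrix array. Of the 10 genes, 9 were read by 1 probe set each that carried no other gene's symbol, out of 19938 genes named on the array, and all 9 were bright enough to be tested with 13870 genes. No probe set was named Npas2 in the annotation used here, so the positive arm was Arntl and Clock. The arrays titled PGC-1a-/-bf/f/MerCre, called tamoxifen arrays 1 to 5, came from mice given 50 mg/kg of tamoxifen per day in sunflower seed oil on 2 days at 2 months of age and labelled as lacking both PGC-1a and PGC-1b. The arrays titled PGC-1a-/-, called vehicle arrays 1 to 5, came from mice given the oil alone at that age and labelled as lacking PGC-1a with PGC-1b intact. All hearts were taken 1 month later, at 3 months. The source names give both groups the same genotype, PGC-1a null with floxed PGC-1b and MerCre, a Cre recombinase that tamoxifen activates; the titles give the floxed allele and MerCre to the tamoxifen group alone. Under the source names all mice lack PGC-1a and differ in tamoxifen, and under the titles they would differ in genotype too. The promoter that drives MerCre and the hour of day at which hearts were taken were not given in the sources used here.

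The molecular clock is a feedback loop that runs in most cells, cardiac muscle cells included. BMAL1, the protein of Arntl, pairs with CLOCK or NPAS2, binds E-box sequences and switches on the Per and Cry genes, whose proteins then block the pair. The same pair drives Nr1d1, whose product REV-ERB alpha represses Arntl, and Dbp, whose product acts on D-box sequences, so that Arntl transcripts are known to be high when Dbp and Per transcripts are low. PGC-1 alpha is known from mouse liver and skeletal muscle to raise Arntl together with ROR receptors.

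The sites through which these factors are known to act were looked for in RefSeq promoter windows of assembly GRCm38.p6, which run from 250 bases before to 50 bases after a start site. A window was found for 8 of the 10 genes, all but Per2 and Bhlhe40, and 12 windows in all. Printed are 5 of these windows that hold a match, to show the sites of genes described below, together with that of Ciart, a clock repressor gene. Each reads 5′ to 3′ along the gene's strand, and capitals mark a match on either strand to the E-box CACGTG, its variant CACGTT, the D-box TTATGTAA or the nuclear receptor half-site AGGTCA. The Per1 window, at chr11:69098699-69098998 on the plus strand, holds an E-box 166 bases before the start and a half-site. The Cry1 window, at chr10:85185005-85185304 on the minus strand, holds an E-box 60 bases before the start and the variant. The Nr1d1 window, at chr11:98775328-98775627 on the minus strand, holds the variant 28 bases before the start. The Per3 window, at chr4:151044616-151044915 on the minus strand, holds D-boxes 205 and 158 bases before the start. The Arntl window, at chr7:113207261-113207560 on the plus strand, holds a half-site 31 bases after the start, and the Ciart window, at chr3:95882179-95882478 on the minus strand, holds 3 E-boxes.
Per1: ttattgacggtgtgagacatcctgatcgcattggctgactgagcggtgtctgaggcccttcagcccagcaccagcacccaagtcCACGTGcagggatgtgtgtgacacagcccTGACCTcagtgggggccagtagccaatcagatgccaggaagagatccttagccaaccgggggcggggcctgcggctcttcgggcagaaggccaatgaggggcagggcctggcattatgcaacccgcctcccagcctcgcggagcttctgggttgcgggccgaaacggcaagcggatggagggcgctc
Cry1: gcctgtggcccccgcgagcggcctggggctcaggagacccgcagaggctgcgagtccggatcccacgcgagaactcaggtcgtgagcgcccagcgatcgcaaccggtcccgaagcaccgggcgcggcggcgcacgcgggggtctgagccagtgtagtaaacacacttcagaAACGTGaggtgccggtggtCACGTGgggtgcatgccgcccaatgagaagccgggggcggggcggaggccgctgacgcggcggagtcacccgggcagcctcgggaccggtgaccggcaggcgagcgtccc
Nr1d1: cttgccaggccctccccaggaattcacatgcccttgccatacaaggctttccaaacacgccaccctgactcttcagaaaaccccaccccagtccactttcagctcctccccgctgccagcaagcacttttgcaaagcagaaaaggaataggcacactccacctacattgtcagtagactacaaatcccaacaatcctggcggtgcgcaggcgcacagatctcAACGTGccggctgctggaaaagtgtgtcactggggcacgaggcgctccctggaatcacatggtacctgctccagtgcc
Per3: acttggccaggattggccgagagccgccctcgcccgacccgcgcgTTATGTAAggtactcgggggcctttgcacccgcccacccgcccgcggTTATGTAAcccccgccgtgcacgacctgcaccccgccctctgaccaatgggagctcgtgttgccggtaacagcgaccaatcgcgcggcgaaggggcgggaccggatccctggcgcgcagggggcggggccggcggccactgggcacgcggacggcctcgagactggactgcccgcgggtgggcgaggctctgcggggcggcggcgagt
Arntl: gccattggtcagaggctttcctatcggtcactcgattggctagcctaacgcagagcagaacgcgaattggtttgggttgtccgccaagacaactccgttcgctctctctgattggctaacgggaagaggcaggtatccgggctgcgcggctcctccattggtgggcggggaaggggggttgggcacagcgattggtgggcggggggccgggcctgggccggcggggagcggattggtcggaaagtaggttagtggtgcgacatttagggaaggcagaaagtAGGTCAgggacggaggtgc
Ciart: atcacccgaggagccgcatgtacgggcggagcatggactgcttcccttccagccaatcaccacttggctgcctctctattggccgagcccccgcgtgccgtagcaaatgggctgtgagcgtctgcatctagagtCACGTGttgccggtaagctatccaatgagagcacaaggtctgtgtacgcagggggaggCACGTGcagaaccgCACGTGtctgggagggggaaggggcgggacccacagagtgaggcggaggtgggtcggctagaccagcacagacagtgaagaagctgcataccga
Of all 32851 windows of this length, 7.15% hold the E-box, 4.68% its variant, 0.938% the D-box and 16.3% the half-site. Of the 12 windows of the 8 clock genes, 2 hold the E-box, 2 the variant, 1 the D-box and 3 the half-site. The cyclic AMP response element TGACGTCA, held by 1.79% of all windows, was in 0 of the 12 clock gene windows. A match describes these letters in these windows and is not evidence of binding.

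Signals are deposited as log2 values normalized by the robust multi-array average (RMA), so a difference of 1 is a doubling. Array medians were 7.18 to 7.31, and tamoxifen array 2 had the highest, against 7.24 at most on the others. The gene targeted by tamoxifen did not follow its label: Ppargc1b read 9.93, 10.15, 10.11, 9.93 and 10.03 on tamoxifen arrays 1 to 5 and 9.76, 9.69, 9.82, 9.65 and 9.90 on vehicle arrays 1 to 5. All 5 tamoxifen values lay above all 5 vehicle values (log2 fold change 0.27 ± 0.061, SE, limma adjusted p = 0.00518). No label says whether the probe set covers the floxed exons, and one that lies elsewhere cannot check the deletion, so each direction below rests on the labels alone. Of all tested genes, 13.7% rose and 8.31% fell on tamoxifen arrays in the limma test described below. Of 9 ventricular muscle markers 1 rose and 1 fell, with linear signals summing to 146189 to 149229 on tamoxifen and 143749 to 145635 on vehicle arrays. Of 10 macrophage markers 8 rose, with summed signals of 7308 to 8785 on tamoxifen and 6192 to 7121 on vehicle arrays, and of 8 fibroblast markers 6 rose, with 19946 to 22055 against 17681 to 18594. Of 6 endothelial markers 1 rose, with 8895 to 9806 on tamoxifen and 8864 to 10017 on vehicle arrays. Of 4 smooth muscle markers 2 rose, with 8336 to 10819 against 8137 to 8905. Of 4 atrial markers 1 rose, with 12800 to 19074 against 11944 to 13789. The atrial markers Myl4, Myl7 and Sln had SDs of 0.492, 0.719 and 0.409 on tamoxifen arrays. On vehicle arrays these were 0.134, 0.136 and 0.148, while Nppa had 0.13 in both groups. These cells also run the clock, the part of these markers in any result below was not tested, and in whole ventricle fewer cells of a type and less RNA per cell cannot be told apart.

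Arntl, the gene of the clock's central activator, varied more between mice of the same group than between the groups. It read 8.20, 8.0, 7.42, 7.69 and 8.70 on tamoxifen arrays 1 to 5, and 7.32, 8.35, 7.73, 7.65 and 8.43 on vehicle arrays 1 to 5. Tamoxifen array 5 and vehicle arrays 2 and 5 were highest, tamoxifen array 3 and vehicle array 1 lowest, and the groups overlapped over nearly their whole ranges. Within a group the highest mouse stood 2.43-fold above the lowest on tamoxifen and 2.16-fold on vehicle arrays. Clock, the gene of BMAL1's partner and itself known for a shallow rhythm, read 10.29, 10.40, 10.17, 10.07 and 10.52 on tamoxifen arrays 1 to 5 and 9.95, 10.18, 9.96, 9.90 and 10.22 on vehicle arrays 1 to 5. It was highest on the same arrays as Arntl within each group, tamoxifen array 5 and vehicle arrays 2 and 5, and the groups overlapped.

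The proteins of the Per genes, in the negative arm, inhibit CLOCK and BMAL1. Per2 and Per3 ran opposite to Arntl, while Per1 did not do so clearly. Per3 read 8.58, 8.72, 8.76, 8.77 and 8.20 on tamoxifen arrays 1 to 5 and 9.08, 8.50, 8.89, 8.76 and 8.46 on vehicle arrays 1 to 5. Its lowest value in each group fell on array 5, where Arntl was highest, and in the vehicle group its highest fell on array 1, where Arntl was lowest. Per2 read 8.48, 8.61, 8.66, 8.66 and 8.34 on tamoxifen arrays and 8.65, 8.36, 8.42, 8.65 and 8.23 on vehicle arrays, lowest again on array 5 of both groups. Per1, which is also known as a gene that stimuli induce within minutes, read 10.02, 9.79, 9.68, 9.94 and 9.42 on tamoxifen arrays and 9.80, 9.68, 9.42, 9.75 and 8.97 on vehicle arrays. Vehicle array 5 held the lowest Per1 value by a wide margin. The groups overlapped in all Per genes.

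The other negative members were even across mice. Cry1, a partner of the PER proteins, read 7.41, 7.64, 7.59, 7.60 and 7.63 on tamoxifen arrays 1 to 5 and 7.39, 7.47, 7.62, 7.43 and 7.47 on vehicle arrays 1 to 5, so tamoxifen array 1 stood below the other 4 of its group. Nr1d1, the gene of the repressor of Arntl, read 12.06, 12.14, 11.98, 11.95 and 12.18 on tamoxifen arrays and 12.10, 11.97, 12.00, 11.86 and 12.11 on vehicle arrays. Nr1d1 was high on array 5 of both groups, where the Per genes were low. The window of Cry1 holds an E-box and that of Nr1d1 the variant, as printed above, and both genes spread far less than Per3. The windows of Per1 and Ciart also hold E-boxes, and both genes spread more than Per3. A link between sites and spread was not tested.

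Both output genes differed from each other. Dbp, the gene of a transcription factor known for one of the widest daily swings in mouse tissues, read 10.72, 10.81, 10.95, 11.02 and 10.25 on tamoxifen arrays 1 to 5 and 10.93, 10.27, 10.80, 10.55 and 10.07 on vehicle arrays 1 to 5. Its lowest values lay on array 5 of both groups and on vehicle array 2, the arrays with the highest Arntl in their groups. Bhlhe40, the gene of DEC1, a repressor that competes for E-boxes, read 9.38, 9.51, 9.51, 9.54 and 9.52 on tamoxifen arrays and 9.22, 9.12, 9.17, 9.03 and 9.18 on vehicle arrays. All 5 tamoxifen values of Bhlhe40 lay above all 5 vehicle values, the one clock gene of the 9 for which the groups did not overlap, where 16.7% of all tested genes had groups that did not overlap, 10.5% higher and 6.15% lower on tamoxifen arrays.

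**Figure D1:**
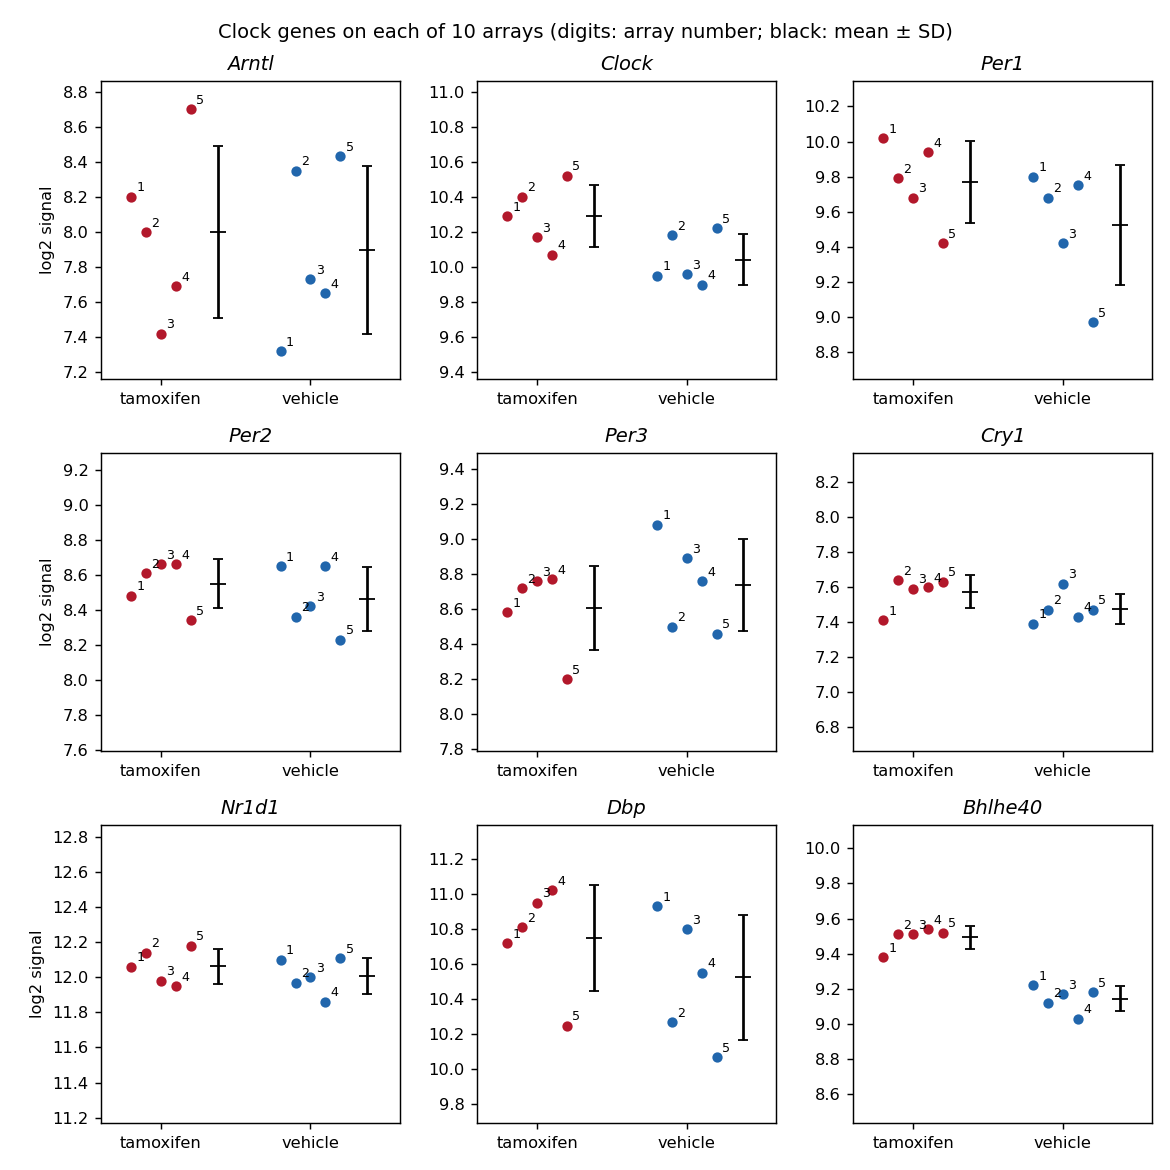
Log2 signal (y axis, each panel spanning the same number of log2 units) of 9 clock genes on tamoxifen arrays (red, left) and vehicle arrays (blue, right), with array numbers beside the points and the mean ± SD of each group in black (n = 5 each). Arntl, Per1, Per3 and Dbp spread widely within both groups, and Bhlhe40 alone has groups that do not overlap.

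The spread within groups was large for most of the set. Its measure is the residual SD, the SD of a gene's log2 signal around its group's mean over both groups, which had a median of 0.0942 over all tested genes and a 90th percentile of 0.146. Arntl had a residual SD of 0.484, the place 11 from the top among 13870 genes. Dbp followed at 0.332 (place 26), Per1 at 0.294 (place 42) and Per3 at 0.251 (place 81). Clock at 0.164 and Per2 at 0.163 also lay above the 90th percentile, making 6 of 9. Nr1d1 at 0.101, Cry1 at 0.0906 and Bhlhe40 at 0.0686 lay near or below the median. The spread was not wider in 1 group: 3 of the 9 genes had the larger SD on tamoxifen arrays, where 60.7% of all tested genes did. Arntl had SDs of 0.491 on tamoxifen and 0.477 on vehicle arrays, and Dbp of 0.303 and 0.358 (n = 5 each).

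**Figure D2:**
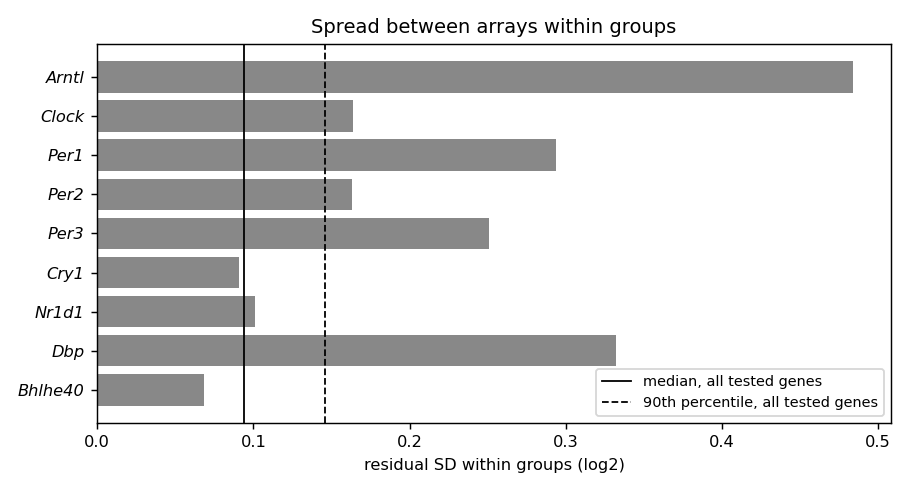
Residual SD within groups (x axis, log2 units) of the 9 clock genes (bars), with the median (solid line, 0.0942) and the 90th percentile (dashed line, 0.146) of all 13870 tested genes. The bars of 6 genes pass the dashed line, and Arntl is the longest at 0.484.

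Set against each other on each array, the arms moved in opposite directions. For each array, the deviation of each gene from its mean over the vehicle arrays was averaged over Arntl and Clock and over the 5 negative genes, which avoids comparing the level of one probe set with that of another. The positive arm stood at 0.28, 0.23, -0.17, -0.089 and 0.64 on tamoxifen arrays 1 to 5 and at -0.33, 0.30, -0.12, -0.19 and 0.36 on vehicle arrays 1 to 5. The negative arm stood at 0.068, 0.14, 0.092, 0.14 and -0.088 on tamoxifen arrays and at 0.16, -0.046, 0.028, 0.048 and -0.19 on vehicle arrays. Taken around each group's own mean, the arms had opposite signs on 9 of 10 arrays, the exception being tamoxifen array 2, with 0.054 and 0.068. On tamoxifen array 1 the negative arm was at -0.0024, next to zero.

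The arm difference, the positive minus the negative arm, was 0.21, 0.093, -0.27, -0.23 and 0.73 on tamoxifen arrays 1 to 5 and -0.50, 0.34, -0.15, -0.24 and 0.55 on vehicle arrays 1 to 5. It spanned 0.995 on tamoxifen and 1.05 on vehicle arrays, and tamoxifen array 5 and vehicle array 5 were the highest of their groups. Its mean was 0.106 ± 0.403 on tamoxifen arrays, against 0, by construction, ± 0.432 on vehicle arrays (SD, n = 5 each). The groups thus differed by 0.106 against a residual SD of 0.418, and with single arrays left out by between -0.049 (without tamoxifen array 5) and 0.24. No p-value is given, since the score is made of chosen genes. The genes were not scaled, and the score followed Arntl closely (r = 0.986 of within-group deviations over the 10 arrays). Of the negative genes, Per1, Per2 and Per3 ran against it (r = -0.655, -0.937 and -0.956), while Cry1 (0.0962) and Nr1d1 (0.518) did not. Likeness to the score, given below, is therefore not independent of likeness to Arntl.

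**Figure D3:**
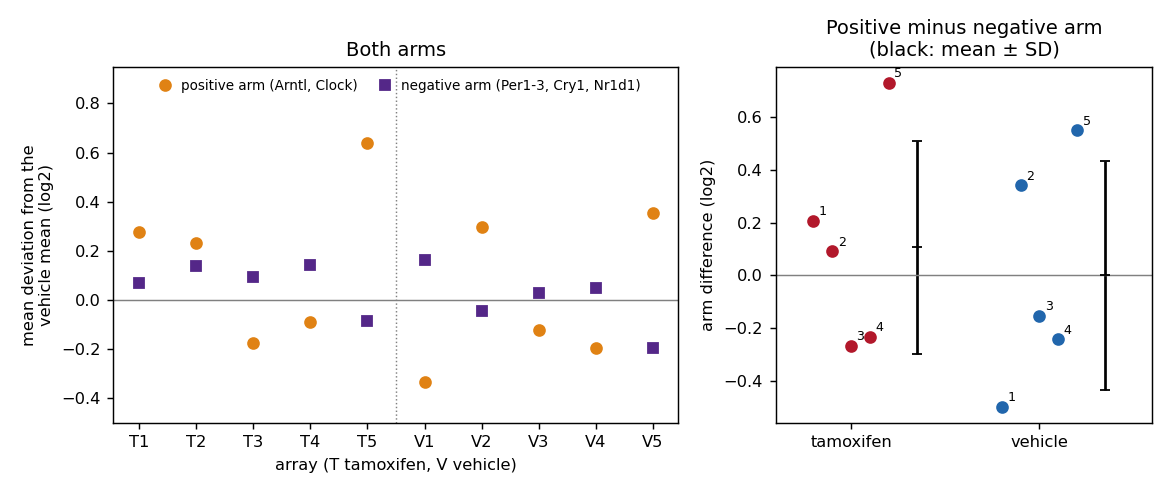
Left, mean deviation from the vehicle mean (y axis, log2) of the positive arm (orange circles) and the negative arm (purple squares) on tamoxifen arrays T1 to T5 and vehicle arrays V1 to V5. Right, positive minus negative arm by group with array numbers and the mean ± SD in black (n = 5 each); both groups span about 1 log2 unit and overlap, and array 5 is the highest in each.

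The opposition was carried by some members and not by others. Deviations of 9 genes from their group means were correlated over the 10 arrays in 36 pairs, with exact two-sided permutation tests within groups (14400 arrangements) and Benjamini-Hochberg adjustment over the 36. Of these, 10 pairs passed at 0.05, with 6 negative and 4 positive correlations, and they were all the 10 pairs among Arntl, Clock, Per2, Per3 and Dbp. By ranks 7 pairs passed. All genes of a pair were read on the same arrays. The tests shuffled the arrays of each group separately, which takes all 10 as independent. Same-numbered arrays of the groups correlated at 0.039 to 0.20 in their deviations, and 7 of 10 arrays correlated best with their own number. If same-numbered arrays are linked, the permutation p-values given here are too small, which was not tested.

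Per3 and Dbp ran most closely together, with Pearson's r of 0.98 and Spearman's rho of 0.96, and both gave an exact permutation p of 6.94e-05, the smallest these arrangements allow (adjusted p = 0.0025 for each), with r of 0.97 after leaving out the 2 arrays farthest from the median of Per3. Arntl ran against Per3 (r = -0.94, exact permutation p = 0.000486, adjusted p = 0.00875; rho = -0.93, exact permutation p = 0.00118, adjusted p = 0.0142). It ran against Dbp as well (r = -0.93, exact permutation p = 0.000764, adjusted p = 0.00917; rho = -0.86, exact permutation p = 0.00472, adjusted p = 0.0283) and against Per2 (r = -0.91, exact permutation p = 0.00139, adjusted p = 0.0125; rho = -0.90, exact permutation p = 0.00111, adjusted p = 0.0142). Without the 2 arrays farthest from the Arntl median these r were -0.88, -0.87 and -0.83. Arntl and Clock ran together (r = 0.88, exact permutation p = 0.00479, adjusted p = 0.0271; rho = 0.89, exact permutation p = 0.00396, adjusted p = 0.0283), with r of 0.76 without those arrays.

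Clock ran against Per2, Per3 and Dbp at r of -0.82, -0.81 and -0.86, with adjusted exact permutation p of 0.0408, 0.0408 and 0.0271, and by ranks only the first passed (adjusted p = 0.0225, against 0.0562 and 0.0982). Without the 2 arrays farthest from the Clock median these r were -0.63, -0.59 and -0.69. Per2 ran with Per3 (r = 0.85, adjusted exact permutation p = 0.0271, and 0.68 without 2 arrays) and with Dbp (r = 0.84, adjusted exact permutation p = 0.0408, and 0.60 without 2 arrays; by ranks 0.0429 and 0.106). Per1 passed with none of the others, and its r with Arntl of -0.54 (exact permutation p = 0.128, adjusted p = 0.288) was 0.16 without 2 arrays, so it rested on those arrays. Nr1d1, a repressor of Arntl, leaned the same way as Arntl (r = 0.48, exact permutation p = 0.192, adjusted p = 0.34), but this too rested on 2 arrays (0.073 without them). With Clock it gave r of 0.73 (exact permutation p = 0.0326, adjusted p = 0.104; rho = 0.79, exact permutation p = 0.016, adjusted p = 0.0639), and 0.53 without 2 arrays. Cry1 and Bhlhe40 passed with no other member, with r of 0.057 and -0.15 against Arntl.

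**Figure D4:**
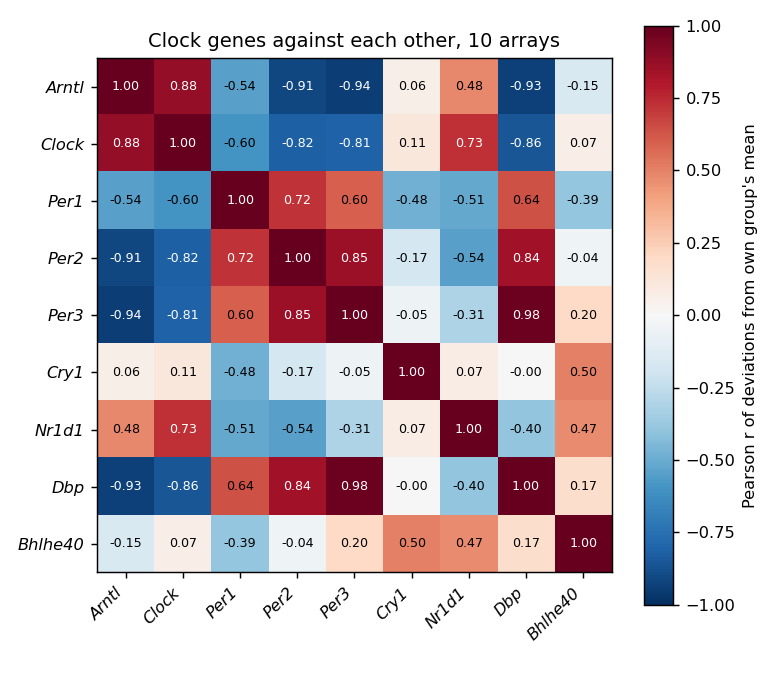
Pearson's r between deviations of the 9 clock genes from their own group's mean over 10 arrays (colour and printed value). Arntl with Clock, and Per2 and Per3 with Dbp, form blocks of positive r with negative r between them, while Cry1 and Bhlhe40 lie outside and Nr1d1 leans toward Clock (r = 0.73).

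Within the whole array the same genes stood at the ends. Ranked by r with Arntl among 13870 tested genes, Per3 had place 2, Dbp place 4 and Per2 place 7 from the most negative end, and Clock place 15 from the most positive end, Arntl itself included. The measure of likeness to the arm difference was Pearson's r of within-group deviations over the 10 arrays, given as a description. On this measure 29 genes, or 0.209% of those tested, reached 0.9 in size, 10 of them positive and 19 negative. The 29 include Arntl, Clock, Per2 and Per3, which are parts of the score, and the member Dbp. Predicted genes and genes with placeholder symbols were skipped in naming the genes most like and most opposed to the arm difference. The 5 other non-members most like it were Fam124b (0.975), Cxadr (0.963), which encodes a junction protein that serves as a virus receptor, Tmem171 (0.947), the metalloprotease gene Adam19 (0.942) and Banp (0.937). The 5 most opposed were Atp1b1 (-0.957), a sodium pump subunit gene, Paxip1 (-0.952), Ciart (-0.936), the transcription factor gene Nfic (-0.924) and Mid1ip1 (-0.923). Of 27 further clock genes on lists named below, 3 reached 0.9: Ciart, Nr1d2 (-0.903), the gene of a relative of NR1D1, and Usp2 (-0.917), a ubiquitin protease gene. These last names were chosen after their values were seen.

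Between the groups, the clock genes were called about as often as genes in general. With limma and Benjamini-Hochberg adjustment over all 13870 genes, 2 of 9 were higher and 0 lower on tamoxifen arrays at 0.05, with a median log2 fold change of 0.106 against 0.014 over all genes; of all genes 13.7% were called higher, 8.31% lower and 22.1% in either direction. Bhlhe40 rose to 9.492 ± 0.0638 on tamoxifen arrays, against 9.144 ± 0.0730 on vehicle arrays (SD, n = 5 each), a log2 fold change of 0.35 ± 0.052 (SE; limma adjusted p = 0.000129), with adjusted p from 6.56e-06 to 0.00068 over all alternatives. Clock was 10.29 ± 0.179 on tamoxifen and 10.04 ± 0.147 on vehicle arrays (SD, n = 5 each), a rise of 0.25 ± 0.084 (SE; limma adjusted p = 0.0449). The call of Clock was lost without tamoxifen array 1, 2 or 5 or vehicle array 1, 3 or 4 (adjusted p 0.0776 to 0.117), with quantile normalization (0.0713), array weights (0.0854), a trended and robust prior (0.0559) and no filter on dim genes (0.0972), over a range of 0.00253 to 0.117; in each of these cases 1 of the 9 genes remained called.

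The other 7 were not called, and their intervals leave room for sizeable changes. The log2 fold change of Arntl was 0.11 with a 95% interval of -0.36 to 0.57 (limma adjusted p = 0.784), and it was -0.069 without tamoxifen array 5 and -0.038 without vehicle array 1 (adjusted p 0.857 and 0.924, 0.45 to 0.927 over the alternatives without a covariate). Per1 gave 0.25 with an interval of -0.047 to 0.54 (adjusted p = 0.226), and Dbp gave 0.23 with an interval of -0.10 to 0.55 (adjusted p = 0.328). Per3 gave -0.13 with an interval of -0.39 to 0.12 (adjusted p = 0.477), the one negative value of the set. Per2 (0.088), Cry1 (0.098) and Nr1d1 (0.054) had narrower intervals, of -0.091 to 0.27, -0.025 to 0.22 and -0.076 to 0.18.

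The arm difference varied widely within groups and was therefore added to the fit as a covariate, centred within each group, an alternative chosen after seeing the data. The centring leaves every fold change as it was and alters the SE alone. Any group difference in the arms, 0.106 here, thus stays in the fold change, while the SE leaves out their spread between mice. For genes that vary with the arms, the SE and p-value of this fit are therefore too small. This fit called 3 of the 9 clock genes higher and 0 lower, where it called 13.2% of all tested genes higher, 8.23% lower and 21.4% in either direction. The count over the 9 cannot be compared with these shares, because the covariate is made of the arm genes among them. For Dbp, which is not part of the arms, the SE went down to 0.060 with the covariate, against 0.154 without, and its log2 fold change of 0.23 was then called (limma adjusted p = 0.014, range over all alternatives 0.014 to 0.629). Dbp varied strongly with the arms (r = -0.962), so that SE is too small and the call is not firmer evidence of a rise. Bhlhe40, which did not vary with the arms (r = -0.085), kept its SE of about 0.05 (limma adjusted p = 0.000239 with the covariate). The third call was Clock, and the values of arm members in this fit are not given, because the covariate contains them.

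**Figure D5:**
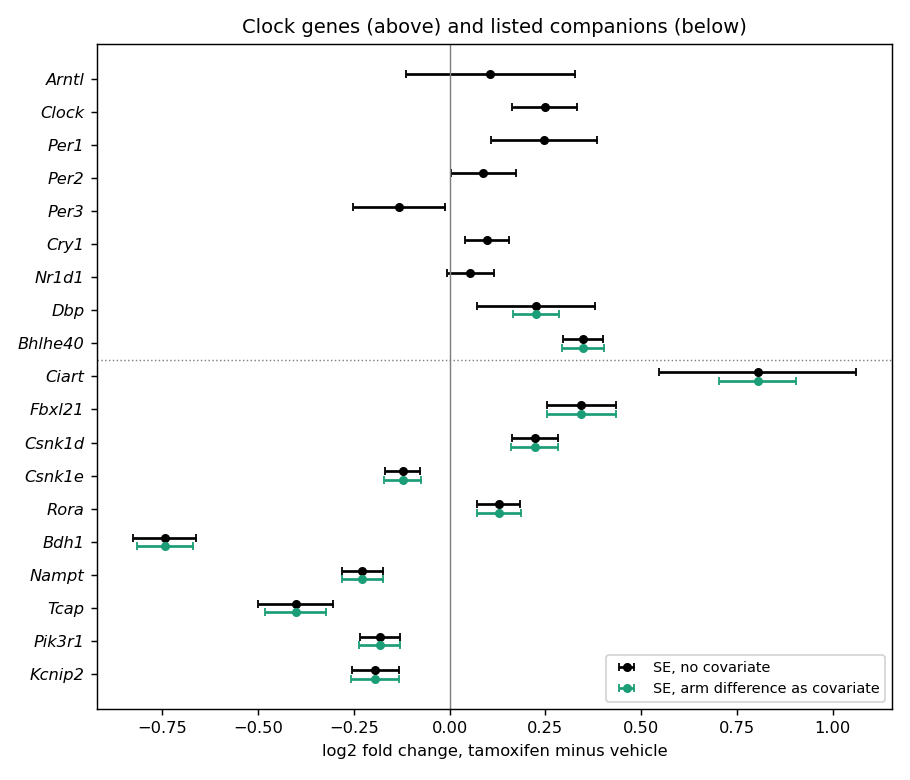
Log2 fold change, tamoxifen minus vehicle (x axis), with SE, of the 9 clock genes (above the dotted line) and of the companions with the smallest p on each clock list (below), without a covariate (black) and, for genes outside the arms, with the arm difference as covariate (green). The bars of Dbp and Ciart shorten with the covariate, while those of Bhlhe40 and Fbxl21 do not. The green bars leave out the spread of the arm difference between mice.

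Other core and accessory clock genes were read from a list of 14, of which 12 were tested. Of the 12, 3 rose and 0 fell, where 13.7% of all tested genes rose and 8.31% fell, and their median log2 fold change was 0.031, against 0.014 over all genes. Ciart, whose product represses CLOCK and BMAL1, read 9.98, 10.04, 10.24, 10.35 and 9.36 on tamoxifen arrays 1 to 5 and 9.94, 8.94, 9.53, 9.44 and 8.10 on vehicle arrays 1 to 5. Like Dbp it was lowest on array 5 of both groups, and its residual SD of 0.568 held place 4 of all tested genes. Its log2 fold change was 0.80 ± 0.26 (SE, limma adjusted p = 0.0347). With the arm difference as covariate the SE was 0.10 (limma adjusted p = 3.1e-05). Ciart varied strongly with that covariate (r = -0.936), which leaves the fold change as it was. As for Dbp, that SE and p-value are too small and are not firmer evidence of a rise. A second probe set of Ciart read 9.22, 8.99, 9.24, 9.63 and 8.45 on tamoxifen arrays and 9.40, 7.93, 8.24, 8.52 and 7.74 on vehicle arrays, a difference of 0.74 (exact two-sided permutation p = 0.0794, where the same test gave 0.0556 for the first probe set). Without the covariate the Ciart call was lost without tamoxifen array 1, 2, 3 or 4 or vehicle array 2 or 5 (adjusted p 0.0541 to 0.0813, with a log2 fold change of 0.53 without vehicle array 5). The full set of alternatives spanned adjusted p of 3.1e-05, from the covariate fit, to 0.149.

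Fbxl21, which encodes a ubiquitin ligase subunit that acts on cryptochromes, rose by 0.34 ± 0.090 (SE, limma adjusted p = 0.0118). Its signal was dim, with means of 7.08 on tamoxifen and 6.74 on vehicle arrays, near the filter's cutoff of 6.55. It was removed with the dimmest 50%. Csnk1d, a kinase gene of the PER proteins, rose by 0.22 ± 0.060 (SE, limma adjusted p = 0.0141). All 5 tamoxifen values of Csnk1d lay above the vehicle values. The sister kinase gene Csnk1e gave -0.12 ± 0.046 (adjusted p = 0.0686), with tamoxifen values all below vehicle values, and was called lower in 6 of 20 alternatives. These were quantile normalization (0.00536), array weights (0.0138), the dimmest 50% left out (0.041), the trended and robust prior (0.0411), centring on array medians (0.05) and leaving out tamoxifen array 2 (0.0236), within a range of adjusted p from 0.00536 to 0.147. Rora, the gene of a receptor that activates Arntl, gave 0.13 ± 0.056 (adjusted p = 0.115).

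Of 16 listed clock outputs, 15 were tested (Por had no named probe set); 0 rose and 6 fell, beside 13.7% and 8.31% of all tested genes, with a median log2 fold change of -0.086 against 0.014 over all genes. Bdh1, an enzyme of ketone body use that CLOCK is known to drive in the mouse heart, fell by 0.74 ± 0.082 (SE; limma adjusted p = 5.25e-06), and Nampt, of NAD synthesis, by 0.23 ± 0.053 (adjusted p = 0.00574). Tcap, a sarcomere protein gene, fell by 0.40 ± 0.098 (adjusted p = 0.00733). Pik3r1 fell by 0.18 ± 0.053 (adjusted p = 0.0211) and the potassium channel subunit gene Kcnip2 by 0.19 ± 0.061 (adjusted p = 0.0304). The Pik3r1 call was lost without tamoxifen array 4 or 5 or vehicle array 1 or 2 (adjusted p 0.0503 to 0.0567, range 0.00226 to 0.0567), and that of Kcnip2 without tamoxifen array 1, 4 or 5 or vehicle array 1, 2 or 5 (0.0538 to 0.0869, range 0.00408 to 0.0869). The factors of the same family as DBP did not pass: Tef gave 0.11 (adjusted p = 0.385) and Hlf 0.0020 (adjusted p = 0.988), both named after their values were seen. Several of these genes are also metabolic or contractile genes, so the list is not one of clock control alone.

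Genes known for rapid induction, among which Per1 is often counted, moved in the same arrays. Of 16 immediate early genes 14 rose and 0 fell, beside 13.7% and 8.31% of all tested genes, with a median log2 fold change of 0.449 against 0.014 over all genes. In 11 of them all tamoxifen values lay above all vehicle values, as in 10.5% of all tested genes. Nr4a3 (1.85 ± 0.14), Egr1 (1.36 ± 0.12), Fos (0.90 ± 0.11), Egr2 (0.85 ± 0.090) and Fosb (0.60 ± 0.082) rose most clearly, each with a limma adjusted p of 5.37e-05 or less. Per1 at 0.25 ± 0.14 (SE) was not called beside them. The part of these genes in the rise of Bhlhe40 and Ciart was not tested.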

How the data were processed

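RNA of 10 heart ventricles was read on 1 array each, from 450 ng of total RNA per the labels' protocols. The submitters' processing notes name RMA and Expression Console 1.1 for the deposited log2 signals, which come without detection calls; RMA normalizes arrays against each other, which can hide shifts shared by most genes, though the array medians here still ranged from 7.18 to 7.31. Of 35556 probe sets, 21789 had 1 gene symbol, 1621 several and 12146 none, by the platform annotation; 0 symbols needed updating against RefSeq. The brightest probe set stood for a gene, and the dimmest 30% (mean log2 signal under 6.55) were left out. Groups came from the titles. The comparison used limma 3.58.1 in R 4.3.3 (lmFit, eBayes, two-sided, no covariate), adjusted with Benjamini-Hochberg over 13870 genes at 0.05. The 5 arrays per group limit the precision. The members, lists and tests were chosen with earlier results of these data known. The text names the members, Ppargc1a and Ppargc1b, and up to 5 genes with the smallest p per list. It also names the 5 genes most like and most opposed to the arm difference, with predicted genes and placeholder symbols skipped. Further names are marked or stand in a count. The fit was tested on simulated data. Alternatives were the replicate block, the prior, array weights, 2 normalizations, the filter, the choice of probe sets, each array left out and the make-up of the arms. Python 3.11.15 with matplotlib 3.10.9 drew the plots.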

Additional observations from a re-analysis of the deposited data

Results flagged for a closer look

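In 82 groups of 5 values, of the genes named and the arm difference, 3 held a value far from the other 4 by Dixon's test, where chance gives about 1 in 20. Cry1 read 7.41 on tamoxifen array 1, against 7.59 to 7.64 on the others of its group. Bhlhe40 read 9.38 on the same array, against 9.51 to 9.54, and this still lay above all vehicle values. Pik3r1 read 11.09 on vehicle array 5, against 11.25 to 11.31.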

How the results depend on the processing

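Of 40 genes named, 24 kept their direction and their side of the threshold under all 20 alternatives (or those that kept the gene), among them Bhlhe40, Per2, Per3, Cry1 and Nr1d1. The count of clock genes called higher was 1 in place of 2 under quantile normalization, array weights, no filter, or a prior both trended and robust, and 1 to 2 with single arrays left out; the count called lower was 0 throughout. Genes called lower numbered 1780 with array weights against 1153, and 940 to 1646 with single arrays left out. Genes called higher ranged from 1493 to 1960 with single arrays left out. The group difference of the arm score stayed within 1 residual SD of 0.106 under all alternatives, from -0.049 to 0.24. Signs turned for Arntl with single arrays left out (-0.069 to 0.25) and for Mid1ip1 (0.030), which gave -0.015 with the mean of its probe sets and -0.054 to 0.096 with single arrays left out; neither was called. The cause was not tested. Same-numbered arrays of the groups correlated at 0.039 to 0.20 in their deviations, above 0.1 in 3 of 5 pairs, and 7 of 10 arrays correlated best with their own number, a hint of pairing from the data that the labels do not state. The numbers were not taken as pairs, because that was done only where every pair exceeded 0.1. With the replicate block 2232 genes were higher and 1300 lower, and 3 clock genes were higher, Per1 among them at 0.25 (limma adjusted p = 0.00643, range over all alternatives 0.00643 to 0.519). Background levels were not used here, so how far dim signals compress a fold change is not known.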

Other observations

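Genes known to be induced by glucocorticoids, among which Per1 is counted, were read from a list of 10. Of 9 tested (Cdkn1a had no named probe set), 3 rose and 1 fell on tamoxifen arrays, beside 13.7% and 8.31% of all tested genes, with a median log2 fold change of 0.14 against 0.014 over all genes. The metallothionein gene Mt2 rose by 0.64 ± 0.10 (SE; limma adjusted p = 0.000263) and Mt1 by 0.28 ± 0.090 (adjusted p = 0.0358). The kinase gene Sgk1 rose by 0.27 ± 0.075 (adjusted p = 0.0167), while Klf9, a transcription factor gene, fell by 0.19 ± 0.061 (adjusted p = 0.0391). Mt1 lost its call without tamoxifen array 2, 3, 4 or 5 or vehicle array 1, 3 or 5 (adjusted p 0.0505 to 0.0957, range 0.00418 to 0.102), and Klf9 without tamoxifen array 1, 3 or 5 or vehicle array 1, 2, 4 or 5 (0.0594 to 0.0953, range 0.00521 to 0.0953). Errfi1 gave 0.25 ± 0.10 (adjusted p = 0.0921).

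Among clock genes that were listed beside the set, several varied with Arntl within groups, given as r of deviations over 10 arrays: Hlf at -0.87, Bhlhe41, the relative of Bhlhe40, at -0.82, Wee1, a cell cycle kinase gene, at -0.76, Tef at -0.74 and Cry2 at -0.66, while Nfil3, whose product competes with DBP for D-boxes, stood at 0.72. Pdk4 stood at 0.895. Other genes of the same lists varied little with Arntl, among them Noct at -0.031, Timeless at -0.088, Rora at -0.14, Btrc at -0.20 and Kcnip2 at -0.21. All genes named in these comparisons with Arntl were chosen after their values were seen. Ppargc1a read 11.20 ± 0.232 on tamoxifen arrays and 10.81 ± 0.138 on vehicle arrays (SD, n = 5 each; log2 fold change 0.39 ± 0.095, SE, limma adjusted p = 0.00797) with r of 0.10 against Arntl. All mice are labelled as lacking PGC-1a, so these levels, far above the array medians of 7.18 to 7.31, go against the label unless the probe set lies outside the deleted part, which no label states.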
